A study of Mus musculus with 6 samples.

Results

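Small RNA libraries of mouse extracellular vesicles (EVs) were examined for 4 miRNA hairpins of blood cells, miR-142a, miR-223, miR-342 and miR-150. Each hairpin gives a 5p and a 3p arm, so the members were 8 of the 1966 mature miRNAs in the table. They were chosen by name and not by their level, but with earlier results of these data known. The study sequenced EVs of colon explants and of bone marrow–derived dendritic cells (BMDCs), with 3 libraries per source. All 6 libraries came from mice labelled Rab27A fl/fl, a floxed line on the C57BL/6 background. Colon explants, which are opened colons with epithelium, immune cells and stroma together, were kept for 16 hours, and EVs were then collected by centrifugation and a density gradient of which fraction 2 was sequenced. BMDCs were bone marrow cells grown with GM-CSF for 7 days in complete RPMI, and the labels give the gradient to the colon samples only. The methods give exosome-depleted serum for the explant medium, and for BMDC cultures complete medium with serum. The Results text of the study, however, names the gradient for both sources. Source and medium, and the gradient if the labels hold, therefore changed together and cannot be told apart. The sources used here do not say whether the libraries of a source came from separate animals, so p-values measure the spread between these samples, which may be technical.

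A miRNA is a short RNA that guides Argonaute to messenger RNAs with a match to its seed, and the 2 arms of a hairpin have different seeds and different targets. miR-142 is made in nearly all blood lineages and is needed for the normal development of dendritic cells and lymphocytes. miR-223 is a miRNA of the myeloid lineage that restrains granulocyte activity. miR-342 is encoded within Evl and is abundant in leukocytes, and miR-150 is best known from mature B and T cells, where it restrains the transcription factor Myb. In solid tissue these miRNAs are commonly read as a trace of leukocytes, which makes them a gauge of how much leukocyte miRNA colon EVs hold next to EVs of a leukocyte culture. In bulk EV samples, fewer EVs from leukocytes and less of a miRNA per EV cannot be told apart.

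The mature sequences of the arms are shown because they separate these miRNAs from one another and from other miRNAs in the counting. The sequences are those of RefSeq on GRCm38.p6, 7 of the 8 members matched, and the seed (bases 2 to 8) is in capitals. miR-150-5p had no match, so its seed and its nearest miRNA were not compared.
mmu-miR-142a-3p: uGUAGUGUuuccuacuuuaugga
mmu-miR-142a-5p: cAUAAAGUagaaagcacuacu
mmu-miR-223-3p: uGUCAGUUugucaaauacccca
mmu-miR-223-5p: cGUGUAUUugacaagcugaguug
mmu-miR-342-3p: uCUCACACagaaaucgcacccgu
mmu-miR-342-5p: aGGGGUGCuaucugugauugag
mmu-miR-150-3p: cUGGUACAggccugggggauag
The 7 seeds differed from one another, and none was shared with another of the 1738 mature miRNAs of RefSeq. The nearest other mature miRNA was miR-3964, at 4 single-base edits from miR-142a-5p, and it had 0 counts in each colon EV library and less than 2 in each BMDC EV library. For the other 6 arms the nearest miRNA was between 7 and 9 edits away.

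The arms of miR-142a lie at chr11:87756903-87756925 (3p) and chr11:87756867-87756887 (5p), on the plus strand within the noncoding gene Mir142hg and outside its annotated exons. Mir142b lies across them on the opposite strand, and its entry had 0 counts in all 6 libraries. The sources used here do not say whether the counting used the strand. The arms of miR-223 lie at chrX:96242884-96242905 (3p) and chrX:96242842-96242864 (5p), where the noncoding gene F630028O10Rik has an exon. Those of miR-342 lie at chr12:108658680-108658702 (3p) and chr12:108658638-108658659 (5p), in an intron of the protein-coding gene Evl. Mir150 lies at chr7:45121757-45121821, with no other annotated gene across it, and its 3p arm at chr7:45121798-45121819. Gene parts are those of GENCODE vM21, and all 4 hairpins are on the plus strand.

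The deposited values are estimated counts per mature miRNA, given here as counts scaled to the library total (CPM). Library totals were between 173358 and 645303 in colon EVs and between 83997 and 178454 in BMDC EVs, so 3 counts stood for 4.65 to 17.3 CPM and for 16.8 to 35.7 CPM, respectively. Colon EV replicate 1 was the deepest library and stood apart from the other 2. The chi-square per degree of freedom between its counts and theirs was 68.4 and 52.6, against 6.25 between the other 2 and 6.66 to 23.3 between BMDC EV libraries. The main results are therefore also given without it.

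Together the 8 arms held a far smaller part of colon EV libraries than of BMDC EV libraries. Their share of all counts was 0.332%, 0.546% and 0.696% in colon EV replicates 1, 2 and 3. In BMDC EV replicates 1, 2 and 3 it was 17.0%, 17.4% and 19.0%. The means were 0.525% ± 0.183 and 17.8% ± 1.07 (SD, n = 3 each), a ratio of 33.9, and the sources did not overlap. A 2-sided exact permutation test gave p = 0.1, the smallest that 3 libraries against 3 allow. Without colon EV replicate 1 the mean in colon EVs was 0.621% and the ratio 28.6. Within colon EVs the share varied 2.10-fold between the lowest and the highest library, against 1.12-fold within BMDC EVs.

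**Figure D1:**
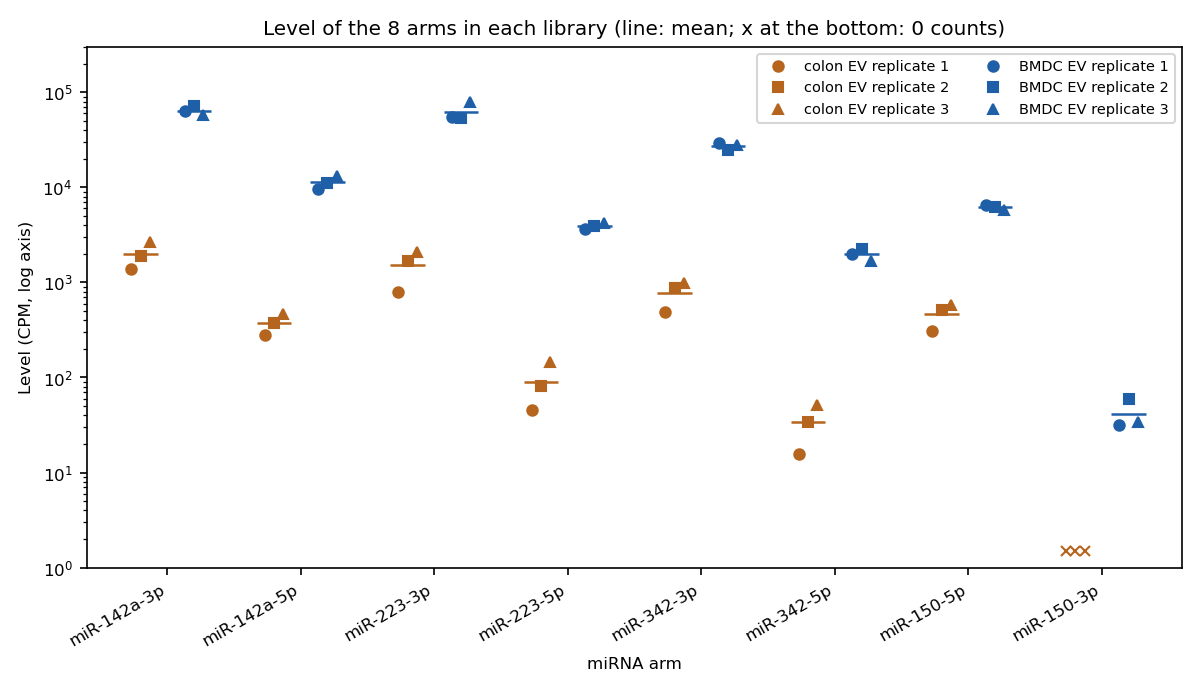
Level of each of the 8 arms in CPM on a log axis, with 1 point per library, orange for colon EVs and blue for BMDC EVs, and a line at the mean of each source. In each arm the 3 blue points sit above the 3 orange ones, and the crosses for miR-150-3p mark 0 counts in the 3 colon EV libraries.

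miR-142a-3p was the most abundant arm of the 4 hairpins in colon EVs. Its level was 1382, 1910 and 2668 CPM in colon EV replicates 1, 2 and 3, against 63028, 72155 and 57237 CPM in the same order in BMDC EVs. The mean of 1987 ± 647 CPM in colon EVs was 3.10% of the mean of 64140 ± 7521 CPM in BMDC EVs (SD, n = 3 each). By abundance mmu-miR-142a-3p was number 48 to 53 of the colon EV libraries and number 4 to 6 of the BMDC EV libraries. Its partner mmu-miR-142a-5p had 283, 372 and 470 CPM in colon EVs and 9650, 11030 and 13204 CPM in BMDC EVs, in replicate order. For both arms the colon EV libraries lay well below the lowest BMDC EV library. By the quasi-likelihood test of edgeR, adjusted over all tested miRNAs by the Benjamini-Hochberg method, the log2 fold change of BMDC EVs over colon EVs was 4.58 (standard error 0.269, adjusted p = 2.84e-11) for the 3p arm. It was 4.49 (standard error 0.260, adjusted p = 2.49e-11 in the same edgeR test) for the 5p arm. Without colon EV replicate 1 the values were 4.13 and 4.07.

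mmu-miR-223-3p nearly equalled miR-142a-3p in BMDC EVs, with 55342, 53730 and 79552 CPM in replicates 1, 2 and 3. In colon EVs it had 800, 1672 and 2068 CPM. Colon EV replicate 1 thus had less than any other library, and the colon mean of 1513 ± 649 CPM was 2.41% of the BMDC mean of 62874 ± 14465 CPM (SD, n = 3 each). The 5p arm, mmu-miR-223-5p, had 44.9, 81.7 and 144 CPM in colon EVs, from 29, 19 and 25 counts, and 3672, 3892 and 4181 CPM in BMDC EVs. It was the arm with the most even level across BMDC EVs after miR-150-5p, yet it varied 3.21-fold within colon EVs. The log2 fold changes were 4.97 (standard error 0.332, adjusted p = 1.78e-10) for the 3p arm and 5.14 (standard error 0.328, adjusted p = 8.93e-11) for the 5p arm in edgeR's quasi-likelihood test. Without colon EV replicate 1 they were 4.40 and 4.46, which lowers the fold of the 5p arm by over 1.5 times.

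mmu-miR-342-3p had 487, 878 and 978 CPM in colon EV replicates 1, 2 and 3, whereas BMDC EVs had 29266, 24773 and 28265 CPM in that order. The means were 781 ± 260 and 27434 ± 2359 CPM (SD, n = 3 each), so that the colon level was 2.85% of the BMDC level. It was number 11 by abundance in each BMDC EV library and number 65 to 85 in colon EVs. mmu-miR-342-5p was the least abundant of the tested arms, with 10, 8 and 9 counts in colon EVs, or 15.5, 34.4 and 51.9 CPM. In BMDC EVs it had 2005, 2250 and 1686 CPM. The exact 95% Poisson intervals of the colon levels ran from 7.43 to 28.5, from 14.8 to 67.7 and from 23.7 to 98.6 CPM, so the 3 colon values are not well separated by counting error. The log2 fold changes were 4.71 (standard error 0.273, adjusted p = 2.49e-11) for the 3p arm and 5.61 (standard error 0.378, adjusted p = 1.82e-10) for the 5p arm in edgeR's quasi-likelihood test. Without colon EV replicate 1 they were 4.20 and 4.84, and for the 5p arm this too is a fold lower by over 1.5 times.

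mmu-miR-150-5p showed the smallest difference of the tested arms. Its level was 308, 516 and 580 CPM in colon EV replicates 1, 2 and 3, against 6588, 6153 and 5825 CPM for BMDC EVs in that order. The mean in colon EVs, 468 ± 142 CPM, was 7.56% of the 6189 ± 382 CPM in BMDC EVs (SD, n = 3 each), where for the other tested arms it was 1.71% to 3.32%. The log2 fold change was 3.31 (standard error 0.242, adjusted p = 6.04e-10 in edgeR's quasi-likelihood test), or 2.82 without colon EV replicate 1. In colon EVs miR-150-5p exceeded miR-142a-5p in each library, whereas in BMDC EVs miR-142a-5p exceeded miR-150-5p in each library. Each read covers a whole mature miRNA, so no correction for length was made, but libraries can favour 1 sequence over another, and the order of different miRNAs within a library is therefore less certain than a change of 1 miRNA between sources. mmu-miR-150-3p was scarce, with 0 counts in each colon EV library and 4, 5 and 6 counts in BMDC EV replicates 1, 2 and 3. Over the 3 BMDC EV libraries this was 38.5 CPM (exact 95% Poisson interval 21.6 to 63.6). The pooled colon EV libraries allow up to 2.85 CPM at 3 counts, so the arm was at least 13.5-fold higher in BMDC EVs with their level taken as measured, and at least 7.56-fold higher from the lower limit of that level. Both cover no error other than that of counting. Of the 1051336 pooled colon counts, 645303 came from colon EV replicate 1. No bound was computed without it, and both folds would then be lower, because the floor would be higher.

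Across the table, 220 miRNAs reached 10 counts in 3 or more libraries and were tested. Of the 8 members, 7 were tested and miR-150-3p was not. All 7 were called higher in BMDC EVs at an adjusted p under 0.05, as were 40.5% of the 220 tested miRNAs. All 7 had each BMDC EV library above each colon EV library in CPM, as did 47.7% of the 220. miR-342-5p passed the count filter through the BMDC EV libraries and 1 colon EV library only, while the other 6 passed it in all 6 libraries. The median log2 fold change was 4.71 over the 7 tested arms and 0.187 over the 220 tested miRNAs, so the changes of the arms stand well above the shift of the whole table. Scaling by library size alone put that shift at 0.635, and DESeq2's size factors at 0.0581. Among the tested miRNAs called higher in BMDC EVs, the arms included, the median log2 fold change was 3.03, against 3.31 for miR-150-5p. Over the scalings and tests tried, the fold of miR-150-5p reached at most 13.5, while that of miR-142a-5p was 20.4 to 30.6 and that of miR-342-5p 45.0 to 67.9.

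**Figure D2:**
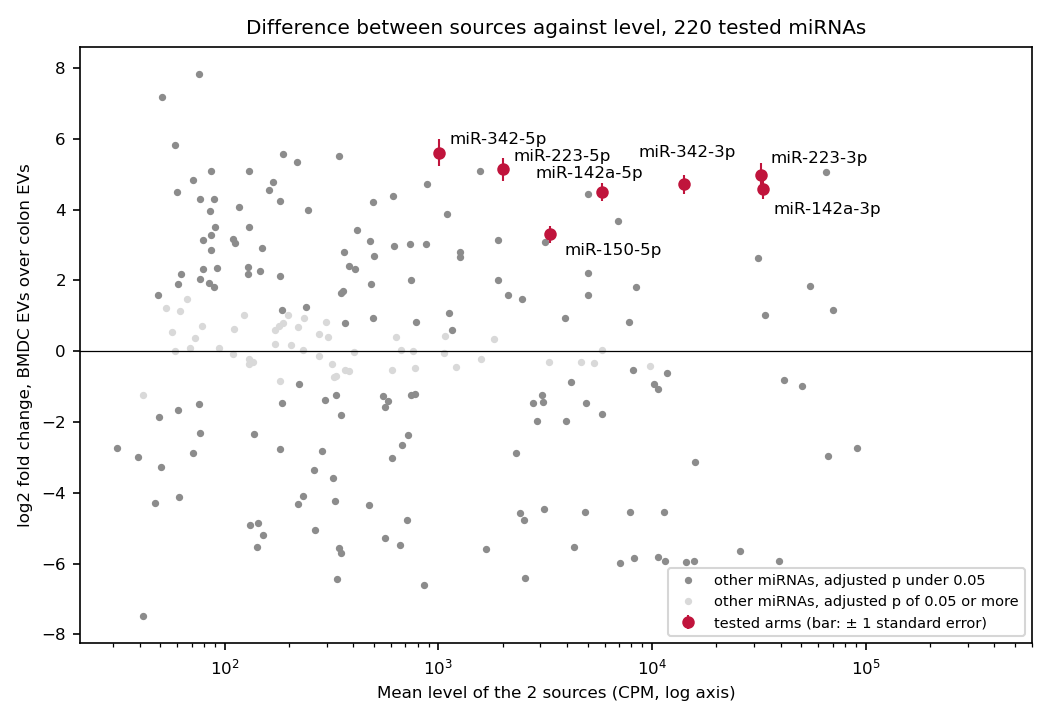
Log2 fold change of BMDC EVs over colon EVs on the vertical axis against the mean level of both sources in CPM on a log axis, for 220 tested miRNAs, with the 7 tested arms in red and bars of 1 standard error. The red points lie between 3.31 for miR-150-5p and 5.61 for miR-342-5p, and 6 of them lie above 4.

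The tested arms also moved together among the colon EV libraries. All 7 were lowest in colon EV replicate 1, as were 51.8% of the 220 tested miRNAs, and highest in colon EV replicate 3, as were 40.0%. Between the lowest and the highest colon EV library they differed by 1.66-fold (miR-142a-5p) to 3.35-fold (miR-342-5p), and between BMDC EV libraries by 1.13-fold to 1.48-fold. A list of 9 epithelial miRNAs, among them miR-192-5p and the miR-200 family, went the other way in sum, with 7 of the 9 highest in replicate 1 and the other 2, miR-200c-3p and miR-375-3p, highest in replicate 2. The list held 29.9% of the counts in colon EV replicate 1 and 22.6% and 22.8% in replicates 2 and 3. For 100 counts of epithelial miRNAs there were 1.11, 2.42 and 3.05 counts of the 8 arms in colon EV replicates 1, 2 and 3. There were 2561, 2189 and 5034 in BMDC EV replicates 1, 2 and 3. The part of the epithelial content and of the depth of replicate 1 in this was not tested.

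The makeup of the leukocyte miRNAs themselves differed between the sources in the parts held by miR-150 and by miR-223, of which that of miR-150 differed more as a ratio and that of miR-223 more in percentage points. Both arms of miR-150 made up 9.27%, 9.44% and 8.33% of the counts of the 8 arms in colon EV replicates 1, 2 and 3, compared with 3.90%, 3.57% and 3.08% for the BMDC EV libraries. miR-142a held 45.7% ± 4.22 in colon EVs and 42.6% ± 5.36 in BMDC EVs (SD, n = 3 each), and the sources overlapped. miR-342 held 15.5% ± 1.02 and 16.6% ± 1.62, again with overlap. miR-223 held 25.5%, 32.1% and 31.8% in colon EV libraries and 34.8%, 33.1% and 44.1% in BMDC EV libraries. The means were 29.8% ± 3.75 and 37.3% ± 5.90 (SD, n = 3 each). The libraries of the 2 sources did not overlap, but the nearest 2 libraries were only 1 percentage point apart, and the ratio of miR-223 to miR-142a did overlap.

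**Figure D3:**
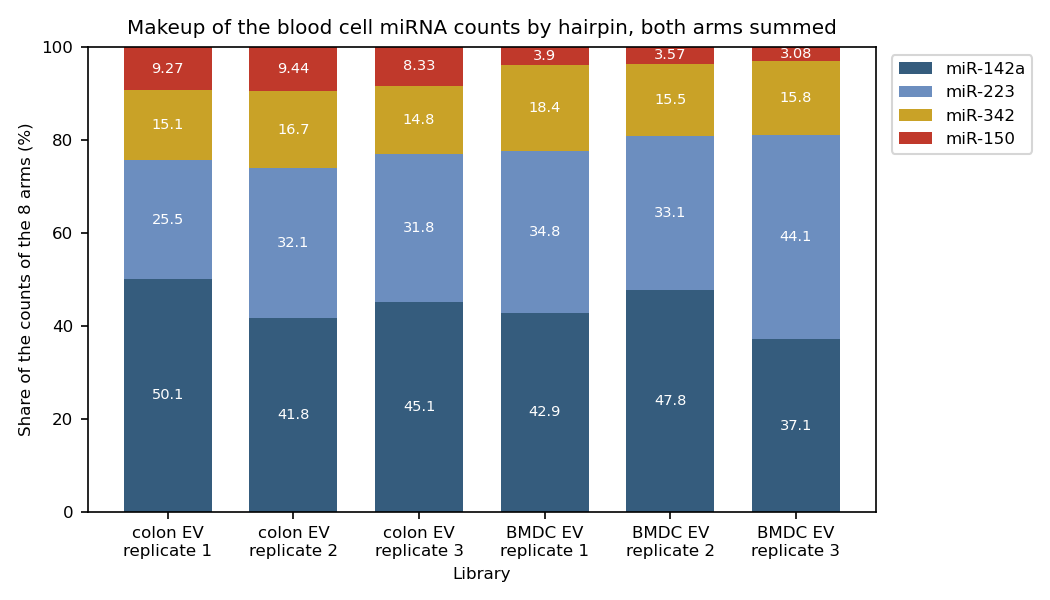
Share of the counts of the 8 arms in percent held by each hairpin, both arms summed, with 1 stacked bar per library. The red section for miR-150 is 8.33% to 9.44% in colon EVs and 3.08% to 3.90% in BMDC EVs, while miR-342 keeps 14.8% to 18.4% in every library.

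Ratios between hairpins need no scaling of the libraries, and all 6 pairs were compared. The log2 ratio of miR-142a to miR-150 was 2.43, 2.14 and 2.43 in colon EVs and 3.46, 3.74 and 3.59 in BMDC EVs, in replicate order, a difference of 1.26. For miR-223 to miR-150 the mean was 1.71 ± 0.239 in colon EVs and 3.40 ± 0.378 in BMDC EVs (SD, n = 3 each), a difference of 1.69. For miR-342 to miR-150 it was 0.784 ± 0.0680 and 2.24 ± 0.117, a difference of 1.45. In these 3 pairs the sources did not overlap, with exact permutation p = 0.1 each (0.2 after adjustment over 6 pairs), so none could pass a threshold of 0.05 with this number of libraries. All 3 pairs share miR-150, so they are not independent of one another. The share of hairpin pairs without overlap over the whole table was not counted, so these gaps have no background beside them. The 3 pairs without miR-150 overlapped. Their differences were −0.43 for miR-142a to miR-223, −0.19 for miR-142a to miR-342 and 0.23 for miR-223 to miR-342, with exact permutation p between 0.3 and 0.5. Without BMDC EV replicate 2 the count of pairs without overlap was 5 in place of 3.

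The change of each arm was also set against that of the other tested arms in edgeR's test of differential usage, which uses the spread of many hairpins. miR-150-5p changed by less than the rest, with a relative log2 fold change of −1.35 (adjusted p = 0.000353, edgeR with Benjamini-Hochberg adjustment over 77 arms). The other 6 were not called. miR-342-5p was the nearest of them, with a relative log2 value of 0.95 (adjusted p = 0.190 in the same edgeR test), and the remaining 5 lay between −0.16 and 0.49. In that fit 7.79% of the 77 arms were called, miR-150-5p among them. Each other group in the fit was the arms of the same hairpin, so this share is not a rate for arms of different hairpins. Under the 8 alternatives tried, the relative value of miR-150-5p stayed between −1.42 and −1.24 and remained called.

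Arm ratios were compared next, since a shared hairpin gives both arms in equal number before one is discarded. The 3p arm dominated in miR-142a, miR-223 and miR-342, and the 5p arm in miR-150, in each of the 6 libraries. For miR-142a the 5p arm was 17.0%, 16.3% and 15.0% of both arms in colon EV replicates 1, 2 and 3, and for the BMDC EV libraries it was 13.3%, 13.3% and 18.7%. BMDC EV replicate 3 thus lay above the colon values and the other 2 BMDC EV libraries below them. For miR-223 the 5p share was 5.32%, 4.66% and 6.52% in colon EVs and 6.22%, 6.75% and 4.99% in BMDC EVs, and the sources overlapped.

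Of the 3 hairpins with both arms tested, miR-342 was the one whose arm ratio did not overlap between the sources. Its 5p share was 3.09%, 3.77% and 5.04% in colon EVs and 6.41%, 8.33% and 5.63% in BMDC EVs, in replicate order. The arms are set in capitals in the hairpin below (RefSeq, chr12:108658620-108658718, plus strand), the 5p arm first, to show what the 2 counts stand for.
Mir342: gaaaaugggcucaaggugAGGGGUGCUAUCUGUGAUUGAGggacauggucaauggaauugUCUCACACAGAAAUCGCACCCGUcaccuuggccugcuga
The log2 ratio of the 5p to the 3p arm was 0.76 higher in BMDC EVs, with exact permutation p = 0.1. In edgeR's test of differential usage over 38 hairpins, the shift had an adjusted p = 0.137 (Benjamini-Hochberg). Unadjusted, the edgeR fit gave 0.0394 for it. The 5p arm rested on 10, 8 and 9 counts in colon EVs, and its 95% Wilson intervals ran from 1.68% to 5.59%, from 1.92% to 7.27% and from 2.67% to 9.28%. The last 2 of these reach into the BMDC values, and that of replicate 1 ends just below the lowest of them. A shift in the arms of miR-342 did not pass the threshold after adjustment. The share of the 38 hairpins without overlap in arm ratio was not counted, so the gap of miR-342 has no background beside it. The adjusted p was 0.847 for miR-142a and 0.839 for miR-223 in the same edgeR test. None of these 3 hairpins was called, while 18.4% of the 38 hairpins were called. At an unadjusted p under 0.05 in the same edgeR test there was 1 of the 3, beside 11 of the 38. For miR-150 the 5p arm was 100% of both arms in colon EVs, from 199, 120 and 100 counts with lower Wilson bounds of 98.1%, 96.9% and 96.3%. It was 99.5%, 99.0% and 99.4% in BMDC EVs. These values did not overlap, but each lies above the lower bounds of all 3 colon EV libraries, and the 3p arm was too low to test.

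**Figure D4:**
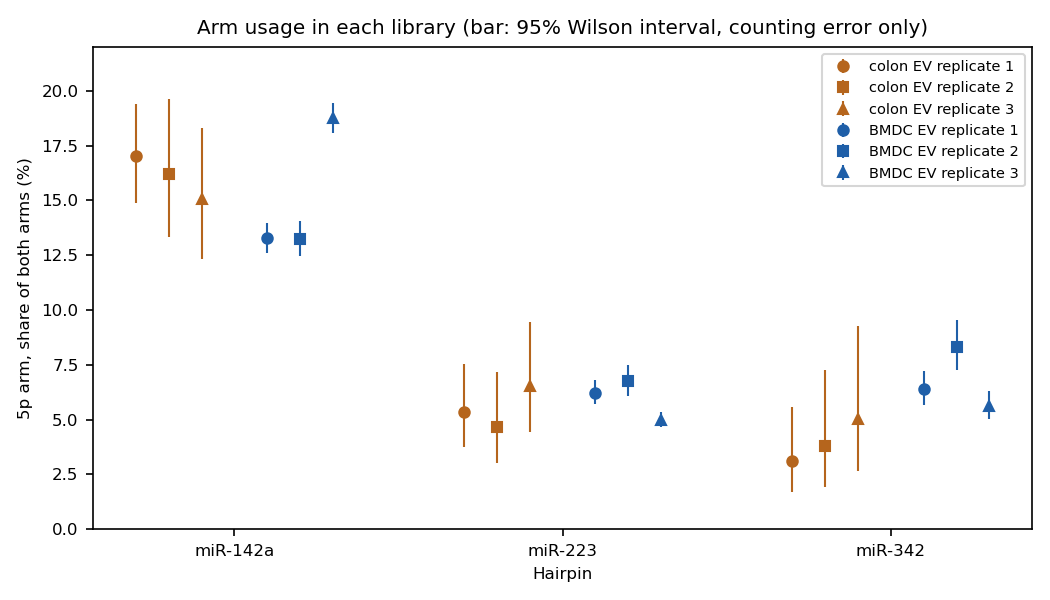
Share of the 5p arm in percent of both arms for 3 hairpins, with 1 point per library and bars of the 95% Wilson interval, which covers counting error only. The bars of the colon EV libraries are wider than those of BMDC EVs, and for miR-342 the colon points, 3.09% to 5.04%, lie below the BMDC points, 5.63% to 8.33%.

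Likeness to other miRNAs was described by the root mean square difference of log2 levels over the 6 libraries, after each miRNA was centred on its own mean. The 2 nearest to miR-142a-3p were miR-9-5p (0.226) and miR-149-5p (0.264). Those nearest to miR-223-3p were miR-155-5p (0.230) and miR-146b-5p (0.388). miR-342-3p was nearest to miR-146b-5p (0.194) and miR-9-5p (0.233). Among the members themselves the arms of miR-142a, miR-223 and miR-342 lay 0.193 to 0.496 apart, and miR-150-5p lay 0.610 to 0.980 from each of them. miR-150-5p was closest to miR-34a-5p (0.128), a miRNA induced by p53, which had 501 ± 132 CPM in colon EVs and 5779 ± 676 CPM in BMDC EVs (SD, n = 3 each) and a log2 fold change of 3.10 (adjusted p = 9.08e-10 in edgeR's quasi-likelihood test). Next was miR-5107-3p (0.134), which had 3.87 ± 2.14 CPM in colon EVs, near the floor of 3 counts, so that its distance depends on the prior count of 2 used for the log2 levels.

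A list of 20 other miRNAs that are abundant in or induced in leukocytes was set beside the 8 arms. It held 1.37% ± 0.0661 of the counts in colon EVs and 16.5% ± 0.442 in BMDC EVs (SD, n = 3 each), a ratio of 12.1 against 33.9 for the 8 arms. Of the 20, 12 were tested, 9 were called higher in BMDC EVs, 1 higher in colon EVs and 2 were not called, with a median log2 fold change of 2.52. miR-155-5p and miR-146b-5p, which are induced by inflammatory signals, had log2 fold changes of 5.07 and 4.44, in the range of the 7 tested arms. Also in that range were miR-132-3p, at 4.38, miR-146b-3p, at 4.07, and miR-146a-5p, at 3.68. The other tested members of the list were below the range. Among them were the widely expressed miR-221-3p, at 2.02, and miR-181a-5p, a miRNA of early lymphocytes, at 1.24. The value for miR-21a-5p, which epithelium and stroma also make in quantity, was −0.54 (adjusted p = 0.0394 in edgeR's quasi-likelihood test). That call held in 3 of 5 other scalings and tests, with a log2 fold change of −0.07 by library size alone. miR-21a-5p alone had 8328 ± 1766 CPM in colon EVs (SD, n = 3), more than the 8 arms together.

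Lists for epithelium, stroma and endothelium went the other way from the 8 arms. The 9 epithelial miRNAs were all called higher in colon EVs, with 25.1% ± 4.14 of the counts there and 0.612% ± 0.213 in BMDC EVs (SD, n = 3 each). The list of 6 miRNAs of smooth muscle and stroma held 0.164% and 0.0163%, with 2 called higher in colon EVs and 4 not tested. The 2 arms of the endothelial miR-126a held 0.0845% and 0.0421%, both called higher in colon EVs. For miR-126a-3p, however, the sources overlapped, with 634 CPM in BMDC EV replicate 2 and 606 CPM in colon EV replicate 2. The 4 miRNAs of the red cell list, a sign of blood in a sample, were near the floor in both sources. Of this list miR-451a had 17.0, 0 and 51.9 CPM in colon EVs and 31.5, 35.7 and 13.1 CPM in BMDC EVs, and none of the 4 was tested. miR-486b-5p, a miR-486-5p entry beside the listed miR-486a-5p, was added after its values were seen and was tested. It is outside the list, so the low level of the list does not cover all counts of miR-486-5p. miR-486b-5p averaged 98.8 CPM in colon EVs and 663 CPM in BMDC EVs. Its log2 fold change was 2.41 (adjusted p = 4.80e-05 in edgeR's quasi-likelihood test). It thus shared the direction of the 8 arms, with a smaller change than any tested arm (3.31 or more). The part of red cell miRNA in the levels of the 8 arms was not tested. miR-122-5p, a liver miRNA that is also found in serum, shared the direction of the 8 arms, again with a smaller change than any tested arm. It went from 106 ± 33.6 CPM in colon EVs to 705 ± 120 CPM in BMDC EVs (SD, n = 3 each), a log2 fold change of 2.32 (adjusted p = 1.03e-05 in edgeR's quasi-likelihood test). The part of the serum of the BMDC medium in the levels of the 8 arms was not tested.

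**Figure D5:**
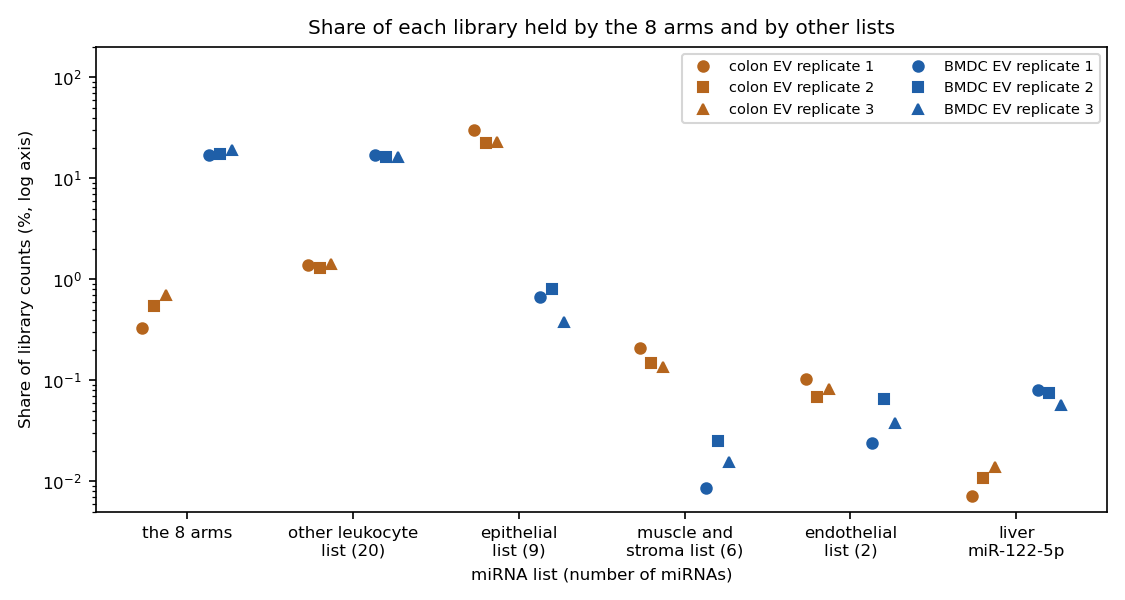
Share of library counts in percent on a log axis held by the 8 arms and by 5 other lists, with 1 point per library. The 8 arms hold 0.332% to 0.696% in colon EVs and 17.0% to 19.0% in BMDC EVs, and the epithelial list holds 22.6% to 29.9% in colon EVs and under 1% in BMDC EVs.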

How the data were processed

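For each mature miRNA the authors deposited an estimated count per library, not normalized and not always whole. Columns were matched to samples by the names in the labels, with 0 left unmatched. The submitters' processing notes name STAR 2.7.6a, featureCounts 1.6.3, DESeq2 1.30.1 and the builds GRCm38 and mm10, and the miRNA annotation and the use of molecular identifiers are not given in the sources used here. Reads are therefore not taken as independent molecules, and intervals and floors cover counting error only. Of the members, miR-150-3p alone had whole counts in all 6 libraries. In the other 7 the fractional parts were at most 0.140% of the counts, and their cause is not given in the sources used here.

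Counts were rounded, and the 220 miRNAs that reached 10 counts in 3 or more libraries were tested in R 4.3.3 with edgeR 4.0.16, using TMM scaling, the quasi-likelihood test, no block and Benjamini-Hochberg adjustment over all 220. Standard errors were derived from the F statistic (log2 fold change over its square root). Arm usage and relative changes used edgeR's test of differential usage, and ratios and shares used 2-sided exact permutation tests with a pseudocount of 0.5 for ratios. The study's base-level cutoff was not applied. Alternatives were DESeq2 1.42.0, limma 3.58.1 with voom, other scalings and count filters, other denominators, 1 arm per hairpin, a replicate block and leaving out each library. A filter on 2 libraries was added after the data were seen. Scripts were tested on simulated counts, and libraries of a source were checked for duplicates, with none found.

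All 8 members are named, with the 2 miRNAs nearest in pattern to the more abundant arm of each hairpin and members of the marker lists. Members and lists were chosen with earlier results of these data known. Of the 1966 miRNAs, 1675 matched a RefSeq mature sequence. Plots were made with matplotlib 3.10.9 in Python 3.11.15.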

Additional observations from a re-analysis of the deposited data

How the results depend on the processing

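Under 15 alternatives the 7 tested arms stayed called higher in BMDC EVs, and without a count filter all 8 members were called. Their log2 fold changes ran from 2.82 to 3.76 for miR-150-5p, from 3.99 to 5.23 for the arms of miR-142a and miR-342-3p, and from 4.40 to 6.11 for the others. The number of miRNAs called was 169, and 133 to 231 under the alternatives. The log2 ratio of the share held by the 8 arms was 5.08, and 4.65 when the library size was scaled by TMM. With each library left out, the hairpin pairs without overlap numbered 3 to 5. Arm usage called none of the 3 tested hairpins under any of 8 alternatives, with a lowest adjusted p of 0.0972 to 0.288 by edgeR. The exact permutation test of the arm ratios cannot go below 0.1 with 3 libraries against 3 and so gave no call to compare.

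The labels number both sources 1 to 3. Deviations of same-numbered libraries correlated at −0.145, −0.0596 and −0.133, so these libraries did not deviate together. With so few libraries this cannot show whether they were prepared together. With the replicate block, 164 miRNAs and 7 members were called, the relative change of miR-150-5p was −1.36, and no other call of the members changed. Depth limits miR-342-5p in colon EVs and miR-150-3p in both sources.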
